A study of Mus musculus with 13 samples.

Results

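The mitochondrial genome transcripts are the 37 gene rows that a count table of 55536 mouse genes assigns to chromosome MT (GRCm38). They were chosen by that chromosome label alone and comprise 13 protein-coding genes, 2 ribosomal RNA (rRNA) genes and 22 transfer RNA (tRNA) genes. All 37 had symbols beginning with mt-. RNA was counted in 13 libraries of nuclei sorted for Pcm1, a protein of the perinuclear material used to pick out nuclei of heart muscle cells, from ventricles of C57BL/6J mice. Each library pooled 3 to 6 ventricles. Pups received 1 intraperitoneal dose of an adeno-associated virus of serotype 6 on postnatal day 1, and tissue was taken on day 56. The vector held the human progesterone receptor (PR) in PGR-vector females (PGR_F, libraries 1, 2 and 4) and PGR-vector males (PGR_M, libraries 1 to 3). It held no insert in control-vector females (Con_F, libraries 1 to 4) and control-vector males (Con_M, libraries 1 to 3). All groups carried a virus, none was left uninjected, and the labels name no promoter for the insert. Libraries were depleted of rRNA with a kit for human, mouse and rat RNA, which targets mitochondrial as well as cytosolic rRNA, and made with a protocol that keeps strand.

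The mitochondrial genome is a small circular DNA present in many copies per cell. Both of its strands are transcribed as long precursors by the polymerase Polrmt with the help of Tfam and Tfb2m. The tRNAs lie between most of the other genes and are cut out, which releases the neighbouring messengers and rRNAs. The proteins are subunits of respiratory complexes I, III, IV and V, and the rRNAs and tRNAs serve the ribosome of the mitochondrion. Heart muscle is among the tissues richest in mitochondria, and mitochondrial RNA makes up much of the RNA of whole heart. It lies outside the nucleus, so its share in a preparation of nuclei is commonly read as a sign of cytoplasm carried along.

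Total counts per library were 31.8 to 86.3 M. The 9 cardiomyocyte markers, none of them at 0, summed to 76400 to 83200 counts per M (CPM, scaled with TMM factors) in PGR_F, 81700 to 95600 in PGR_M, 80800 to 91900 in Con_F and 82600 to 91200 in Con_M. Over all libraries, 5 fibroblast markers summed to 17.7 to 68.8 CPM, 5 endothelial markers to 20.3 to 43.8, 5 of smooth muscle and pericytes to 14.1 to 32.6 and 5 of macrophages to 4.96 to 11.9, with none of these genes at 0. Xist, expressed from the inactive X chromosome, stood at 740 to 1203 CPM in the 7 female libraries and at 0.313 to 1.05 CPM in the 6 male libraries. Con_F 4 held 2.75 CPM of the Y-linked gene Uty, against at most 0.218 CPM in the other 6 female libraries. Con_M 3 stood apart in Gm42418, a row that overlaps nuclear rRNA sequence, with 28450 CPM against 4205 to 11850 CPM in the other 12 libraries. The human insert was not measured here. Nothing in the labels says how the pools were raised, so every p-value measures only the spread between these pools.

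A read can be assigned to a mitochondrial gene by its sequence only where that gene differs from nuclear DNA. Nuclear genomes hold old copies of mitochondrial DNA, and the mouse has a long, nearly identical copy on chromosome 1. Transcript sequences of GENCODE M21 (GRCm38) were therefore aligned to each other. The stretches below show why the copies matter: the first pair has 0 differing bases, and in the second pair the 10 differing bases are in capitals.

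mt-Co2, chrM:7013-7162, plus strand: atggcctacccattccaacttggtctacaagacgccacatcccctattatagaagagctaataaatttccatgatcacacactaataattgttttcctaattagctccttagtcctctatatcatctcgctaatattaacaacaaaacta
Gm28661, chr1:24615416-24615565, minus strand: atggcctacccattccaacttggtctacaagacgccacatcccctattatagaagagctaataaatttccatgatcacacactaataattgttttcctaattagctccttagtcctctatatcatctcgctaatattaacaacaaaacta

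mt-Cytb, chrM:14146-14295, plus strand: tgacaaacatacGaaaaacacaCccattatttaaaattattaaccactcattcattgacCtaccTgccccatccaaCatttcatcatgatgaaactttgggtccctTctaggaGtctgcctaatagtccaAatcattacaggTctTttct
Gm11410, chr4:80003990-80004139, plus strand: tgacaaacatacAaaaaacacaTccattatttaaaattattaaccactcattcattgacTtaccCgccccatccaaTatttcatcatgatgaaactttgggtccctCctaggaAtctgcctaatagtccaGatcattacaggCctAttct

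In the next stretch, from mt-Nd4, the lower-case bases are shared with Gm28439 on chromosome 1 and the 74 capitals lie past the end of that copy's row.

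mt-Nd4, chrM:10967-11116, plus strand: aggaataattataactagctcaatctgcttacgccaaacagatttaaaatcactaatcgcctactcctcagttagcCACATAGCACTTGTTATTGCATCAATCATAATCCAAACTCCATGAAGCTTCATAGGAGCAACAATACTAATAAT

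On chromosome 1, 7 gene rows on the minus strand matched consecutive pieces of the mitochondrial genome. They ran from 24611535 to 24616197, a span of 4663 bases, which corresponds to MT 6381 to 11042, a span of 4662 bases. That span was matched only in pieces: Gm29216 aligned from its base 10 on, and the stretches between the rows were not aligned. Gm29216 matched the end of mt-Co1 over 483 bases with 1 mismatch. Gm28661 matched mt-Co2 over 681 bases, Gm10925 mt-Atp6 over 678, Gm28437 mt-Co3 over 783, Gm10222 mt-Nd4l over 294 and Gm28439 the start of mt-Nd4 over 876, all with 0 mismatches. Gm28438 matched mt-Nd3 over 345 bases with 1 mismatch. The gap between Gm28661 and Gm10925 was 233 bases, as was the gap between the matching ends of mt-Co2 and mt-Atp6, where mt-Tk and most of mt-Atp8 lie. Annotated transcripts alone were searched, so other nuclear copies may have been missed.

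Levels per length fell into groups that followed these matches. mt-Nd1, mt-Nd2, mt-Nd5, mt-Nd6 and mt-Cytb had no nuclear transcript of at least 99% identity, and their medians over the 13 libraries were 19.7 to 83.9 CPM per kb. mt-Co2, mt-Atp6, mt-Co3, mt-Nd3 and mt-Nd4l had at least 99% of their bases in such a match, and their medians were 0.176 to 0.666 CPM per kb. The lowest median of the unmatched genes was thus 29.6 times the highest median of the matched ones. The highest value of a matched gene in any library was 1.05 CPM per kb, and every value of an unmatched gene was above that. These levels are descriptions, with no test.

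The other 3 protein-coding genes were matched in part. mt-Co1 (ENSMUSG00000064351, MT 5328 to 6872, plus strand), which encodes the catalytic core subunit of complex IV, had 31.3% of its bases matched and the highest median of the 13, 173 CPM per kb. mt-Nd4, of complex I, had 63.6% matched and 22.6 CPM per kb. mt-Atp8, of complex V, had 21.1% matched by annotated transcripts and held 2 counts in all 13 libraries together, both in PGR_M 3. Most of mt-Atp8 lies in the 233-base gap between Gm28661 and Gm10925, where its match to nuclear DNA was not measured. It shares 43 bases with mt-Atp6 on the same strand, and how reads in such overlaps were assigned was not given in the sources used here.

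The copies on chromosome 1 held few counts as well. Their 7 rows had 1966 counts in all, 74 to 333 per library, and the 5 matched mitochondrial genes had 761. In mt-Co2 there were 262 counts, against 371 in Gm28661. In mt-Co3 there were 238, against 401 in Gm28437. Copies that have diverged held almost nothing: Gm11410, at 92.9% identity to mt-Cytb, had 1 count, while mt-Cytb had 68472. Gm11408, at 93.6% identity to mt-Nd6, had 0 counts, while mt-Nd6 had 5887. Gm4076, at 95.2% identity to part of mt-Nd5, had 3 counts, while mt-Nd5 had 64026. Gm13340, at 97.6% identity to mt-Co1, had 146 counts, while mt-Co1 had 190972. A read from a stretch with 0 mismatches cannot be placed from its sequence, so the values of mt-Co2, mt-Atp6, mt-Co3, mt-Nd3 and mt-Nd4l, and in part of mt-Co1 and mt-Nd4, are uncertain. The part of read placement in these low values was not tested.

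**Figure D1:**
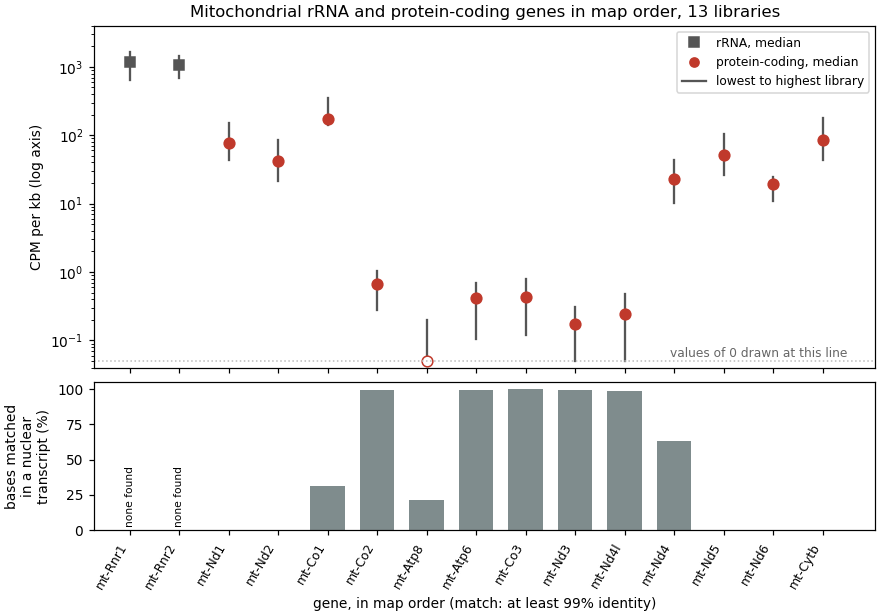
Upper panel: level of the 2 rRNA genes and 13 protein-coding genes in map order, in CPM per kb on a log axis, as the median (symbol) and the range (line) over 13 libraries. Lower panel: percent of each gene's bases that lie in an annotated nuclear transcript at 99% identity or more. Most of mt-Atp8 lies in a gap between copies on chromosome 1, where its match was not measured. The 5 genes with bars of at least 99% have medians of 0.176 to 0.666 CPM per kb, and the 5 protein-coding genes with no bar have 19.7 to 83.9.

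The 2 rRNAs held most of the mitochondrial counts. mt-Rnr1 (ENSMUSG00000064337, MT 70 to 1024) encodes the RNA of the small subunit of the mitochondrial ribosome and had a median of 1200 CPM per kb. mt-Rnr2 (ENSMUSG00000064339, MT 1094 to 2675) encodes that of the large subunit and had 1080 CPM per kb. Together they held 1695667 of 2126782 mitochondrial counts, and 73.5% to 89.4% per library. Neither had a nuclear transcript at 90% identity or more. These are levels after depletion of rRNA, and the efficiency of that step per library was not given in the sources used here.

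mt-Nd6, a subunit of complex I, is the single protein-coding gene on the minus strand, which is read from the light-strand promoter together with 8 tRNAs. Its median, 19.7 CPM per kb, was under those of 4 other complex I genes, mt-Nd1 (76.5), mt-Nd5 (51.1), mt-Nd2 (42.0) and, with its partial match, mt-Nd4 (22.6). mt-Cytb, the mitochondrial subunit of complex III, had 83.9 CPM per kb. mt-Nd6 overlaps mt-Nd5 by 14 bases on the opposite strand. Reads of opposite strands were kept apart in this table: Tsix, antisense to Xist, had 0.796 to 4.10 CPM in all 13 libraries, female ones included.

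The tRNA rows were nearly empty. All 22 held 758 counts in 13 libraries. mt-Tw, for tryptophan, had 248 counts, mt-Tm, for methionine, 184, mt-Ti, for isoleucine, 157, mt-Tq, for glutamine, 59 and mt-Tp, for proline, 33. mt-Tw had 0.530, 0.347 and 0.374 CPM in PGR_F and 0.259, 0.409 and 0.534 CPM in PGR_M, against 0.191, 0.303, 0.191 and 0.555 CPM in Con_F and 0.583, 0.427 and 0.436 CPM in Con_M. mt-Tm had 0.312, 0.326 and 0.136 CPM in PGR_F and 0.276, 0.301 and 0.534 CPM in PGR_M, against 0.364, 0.0467, 0.191 and 0.185 CPM in Con_F and 0.326, 0.570 and 0.249 CPM in Con_M. The groups overlapped for both. mt-Tq was at 0.0430 to 0.164 CPM over all libraries, and mt-Tp at 0 to 0.104 CPM. In 9 tRNA rows (mt-Tf, mt-Tc, mt-Ts1, mt-Td, mt-Tk, mt-Tr, mt-Th, mt-Ts2 and mt-Tl2) there were 0 counts in every library, where a count of 0 allows up to 3 counts, or 0.0349 to 0.0936 CPM per library. That limit covers sampling alone. mt-Ts1, mt-Td, mt-Tk and mt-Tr lie within MT 6381 to 11042, the span matched in pieces by the rows on chromosome 1, and whether their reads could be placed was not tested. The tRNA rows are 59 to 75 bases long, and per the labels library fragments of 200 to 400 bp were selected. mt-Ti shares 2 bases with mt-Nd1 and mt-Tw shares 2 with mt-Nd2, on the same strand. Of the 37 genes, 15 passed the filter on low counts and were tested: 10 protein-coding genes, the 2 rRNAs and mt-Ti, mt-Tm and mt-Tw. The 22 below the filter were mt-Atp8, mt-Nd3, mt-Nd4l and 19 tRNAs.

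The mitochondrial share of counts was small in every library and differed between libraries of the same group. It was 0.42%, 0.249% and 0.238% in PGR_F 1, 2 and 4, and 0.31%, 0.233% and 0.481% in PGR_M 1 to 3. It was 0.333%, 0.254%, 0.391% and 0.428% in Con_F 1 to 4, and 0.388%, 0.4% and 0.314% in Con_M 1 to 3. The means were 0.302 ± 0.102% in PGR_F and 0.351 ± 0.0759% in Con_F (SD, n = 3 and 4). They were 0.341 ± 0.127% in PGR_M and 0.367 ± 0.0466% in Con_M (SD, n = 3 each). The groups overlapped in both sexes. Counting error was far smaller than these gaps, with Wilson 95% half-widths of 0.0013 to 0.0022 percentage points, which cover counting error only. In bulk nuclei, fewer particles with mitochondrial RNA and less RNA in each cannot be told apart.

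The protein-coding genes alone gave another order of libraries than the rRNAs did. Their share was 0.0639%, 0.0659% and 0.0535% in PGR_F 1, 2 and 4, and 0.0609%, 0.0595% and 0.12% in PGR_M 1 to 3. It was 0.0596%, 0.0425%, 0.0415% and 0.082% in Con_F 1 to 4, and 0.0928%, 0.0715% and 0.0551% in Con_M 1 to 3. PGR_M 3 was the highest library and Con_F 2 and 3 were the lowest. rRNA counts were 2.78 to 8.43 times the protein-coding counts, lowest in PGR_F 2 and highest in Con_F 3. The ratio of mt-Rnr2 to mt-Rnr1 counts was 1.19 in Con_F 4 and 2.31 in Con_F 2, and 1.23 to 1.80 in the other 11 libraries.

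Levels of the complex I messengers differed between pools of 1 group. mt-Nd5 had 82.6, 113 and 79.8 CPM in PGR_F and 93.3, 93.5 and 194 CPM in PGR_M, against 85.2, 47.8, 49.0 and 135 CPM in Con_F and 131, 106 and 88.8 CPM in Con_M. mt-Nd1 had 73.1, 81.4 and 61.3 CPM in PGR_F and 71.2, 73.2 and 145 CPM in PGR_M, against 73.7, 41.1, 41.5 and 99.8 CPM in Con_F and 108, 86.8 and 72.7 CPM in Con_M. mt-Nd4 had 25.6, 39.0 and 24.6 CPM in PGR_F and 28.6, 31.7 and 59.3 CPM in PGR_M, against 27.9, 15.03, 14.1 and 51.7 CPM in Con_F and 39.9, 31.1 and 31.5 CPM in Con_M. For all 3 genes Con_F 2 and 3 were lowest and PGR_M 3 was highest. The ratio of the highest to the lowest library was 4.05 for mt-Nd5, 3.53 for mt-Nd1, 4.23 for mt-Nd4 and 4.13 for mt-Cytb, and smaller for mt-Rnr1 (2.56), mt-Rnr2 (2.13), mt-Co1 (2.49) and mt-Nd6 (2.24).

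The genes with nuclear copies rested on few counts. mt-Co2, a copper-binding subunit of complex IV, had 0.530, 0.326 and 0.511 CPM in PGR_F and 0.294, 0.516 and 0.719 CPM in PGR_M, against 0.191, 0.303, 0.263 and 0.555 CPM in Con_F and 0.489, 0.456 and 0.280 CPM in Con_M. mt-Atp6 had 0.343, 0.469 and 0.272 CPM in PGR_F and 0.259, 0.280 and 0.472 CPM in PGR_M, against 0.104, 0.233, 0.0718 and 0.476 CPM in Con_F and 0.303, 0.342 and 0.218 CPM in Con_M. The groups overlapped for both genes. mt-Nd3 had 0 to 7 counts per library and mt-Nd4l 0 to 8, both of complex I.

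Libraries that were high in one abundant messenger were high in most others. Over 9 genes with at least 200 counts in every library, the correlation of log2 CPM across the 13 libraries was 0.96 to 1.00 (Pearson) for all 10 pairs among mt-Nd1, mt-Nd2, mt-Nd4, mt-Nd5 and mt-Cytb. It was 0.66 to 0.90 for the 3 pairs among mt-Rnr1, mt-Rnr2 and mt-Nd6, and -0.09 to 0.45 for the 15 pairs between these sets. The sets were formed after the values were seen and carry no test. mt-Co1 stood between them, at 0.63 to 0.79 with the first set and 0.61 to 0.66 with the second. All genes of a library share its scaling factor.

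Across libraries the light-strand messenger mt-Nd6 varied together with mt-Rnr2. mt-Nd6 had 11.8, 5.69 and 6.36 CPM in PGR_F and 8.02, 6.48 and 12.8 CPM in PGR_M, against 11.5, 10.2, 11.4 and 8.59 CPM in Con_F and 11.2, 10.4 and 7.35 CPM in Con_M. mt-Rnr2 had 2270, 1095 and 1111 CPM in PGR_F and 1530, 1072 and 2281 CPM in PGR_M, against 1705, 1464, 2215 and 1874 CPM in Con_F and 1820, 2047 and 1478 CPM in Con_M. PGR_F 2, PGR_F 4 and PGR_M 2 were the 3 lowest libraries for both genes. Their correlation was r = 0.90 (permutation p = 7e-05, adjusted p = 0.000327 over 56 relations) and rho = 0.87 (permutation p = 0.00015, adjusted p = 0.00084). It was 0.83 without PGR_M 2 and PGR_F 2, and 0.88 for deviations from the group means. For mt-Nd6 and mt-Cytb r was 0.02 (permutation p = 0.954, adjusted p = 0.96) and rho 0.04 (permutation p = 0.907, adjusted p = 0.985). mt-Rnr1 and mt-Nd6 had r = 0.66 (permutation p = 0.0169, adjusted p = 0.0431) and rho = 0.61 (permutation p = 0.03, adjusted p = 0.0841). Their r was 0.47 without PGR_M 2 and PGR_F 4, so that this relation rests in part on those libraries, and 0.6 for deviations from the group means. The p-values are two-sided, from 100000 permutations.

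**Figure D2:**
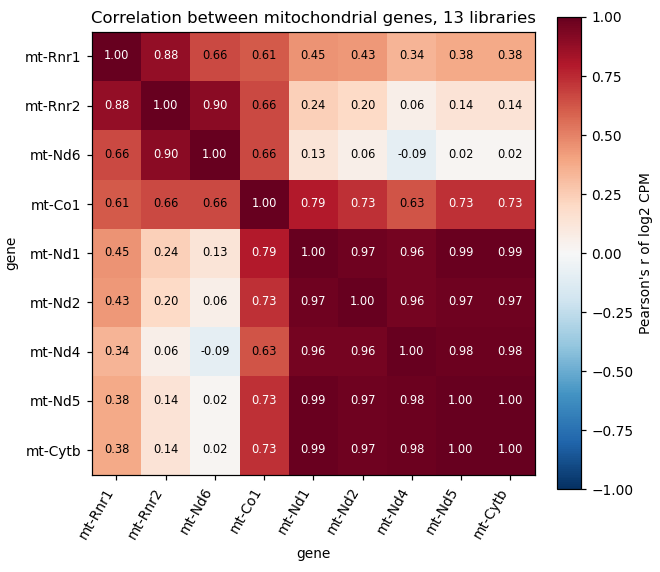
Pearson's r of log2 CPM over 13 libraries for each pair of the 9 mitochondrial genes with at least 200 counts in every library (colour scale from -1 to 1). mt-Nd1, mt-Nd2, mt-Nd4, mt-Nd5 and mt-Cytb form a block of 0.96 to 1.00, and mt-Rnr1, mt-Rnr2 and mt-Nd6 a block of 0.66 to 0.90.

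Transcripts of red blood cells varied between libraries together with mt-Cytb. The 5 erythroid genes (Hba-a1, Hba-a2, Hbb-bs, Hbb-bt and Alas2), all above 0, summed to 3.80, 4.94 and 4.88 CPM in PGR_F and 5.29, 6.20 and 8.66 CPM in PGR_M, against 6.93, 2.80, 3.13 and 6.77 CPM in Con_F and 6.71, 6.27 and 6.63 CPM in Con_M. mt-Cytb had 83.6, 119 and 80.2 CPM in PGR_F and 96.0, 103 and 206 CPM in PGR_M, against 90.6, 49.9, 50.7 and 148 CPM in Con_F and 149, 113 and 95.8 CPM in Con_M. Con_F 2 and 3 were lowest and PGR_M 3 was highest in both. The correlation was r = 0.87 (permutation p = 5e-05, adjusted p = 0.000255) and rho = 0.75 (permutation p = 0.00466, adjusted p = 0.0201). It was 0.70 without Con_F 2 and 3, and 0.85 for deviations from the group means. With the erythroid sum, r was 0.55 for mt-Co1, -0.02 for mt-Nd6 and 0.04 for mt-Rnr2 (permutation p = 0.0502, 0.938 and 0.894, adjusted p = 0.108, 0.96 and 0.96), with rho of 0.52, 0.26 and 0.26 (permutation p = 0.0725, 0.396 and 0.396, adjusted p = 0.177, 0.541 and 0.541). Rn7sk, a short nuclear RNA picked after its values were seen, had r = 0.78 with mt-Cytb (permutation p = 0.00191, adjusted p = 0.00713) and rho = 0.70 (permutation p = 0.0102, adjusted p = 0.0353), and 0.65 without Con_F 2 and 4. Ribosomal protein transcripts, 43 genes summing to 254 to 319 CPM, had r = -0.47 with mt-Cytb (permutation p = 0.108, adjusted p = 0.224) and rho = -0.44 (permutation p = 0.132, adjusted p = 0.264). Abundant heart muscle messengers, 10 genes summing to 15600 to 24300 CPM, had r = 0.29 with mt-Cytb (permutation p = 0.342, adjusted p = 0.531) and rho = 0.35 (permutation p = 0.25, adjusted p = 0.412). For deviations from the group means their r was 0.51. With mt-Co1, mt-Nd6 and mt-Rnr2 their r was 0.14, 0.12 and 0.15 (permutation p = 0.638, 0.71 and 0.63). Gm26917, a row over nuclear rRNA sequence, was at 23410 to 28170 CPM in PGR_F and 23850 to 50170 CPM in PGR_M, against 28520 to 68660 CPM in Con_F and 27490 to 34790 CPM in Con_M. What part any of these had in the mitochondrial values was not tested.

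**Figure D3:**
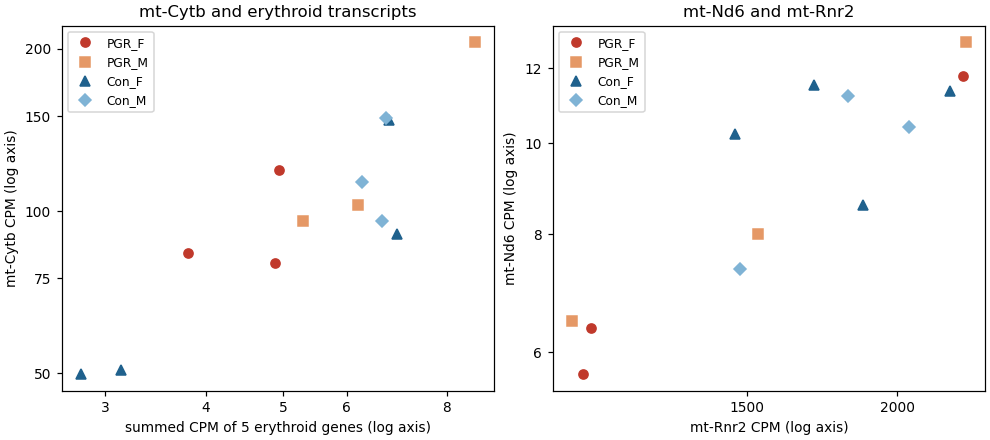
Left: mt-Cytb against the summed level of 5 erythroid genes. Right: mt-Nd6 against mt-Rnr2. Each point is a library, all axes are CPM on a log scale, and symbols give the 4 groups. In the left panel Con_F 2 and 3 lie lowest and PGR_M 3 highest (r = 0.87). In the right panel PGR_F 2, PGR_F 4 and PGR_M 2 lie lowest (r = 0.90).

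In females, PGR-vector libraries were set against control-vector libraries, and no mitochondrial gene passed. The test was edgeR's quasi-likelihood test with Benjamini-Hochberg adjustment over 16125 genes and a threshold of 0.05. It called 0 of 15 members, against 0% of all tested genes, and DESeq2 and limma-voom also called 0 of the members in each comparison below. Of the members 1 had an unadjusted p under 0.05, against 10.9% of all genes. 11 of 15 log2 fold changes were above 0, against 50.7% of all genes, and the median was 0.17, against 0.00 over all genes. The smallest adjusted p among members was 0.431.

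In females the estimates of both rRNAs, mt-Nd6 and mt-Co1 lay below 0 and those of the other 11 tested members above it, within the spread of the libraries. mt-Rnr1 had 1260, 675 and 630 CPM in PGR_F, against 1090, 633, 1326 and 1569 CPM in Con_F. PGR_F 1 lay among the control libraries and the groups overlapped, and the log2 difference, -0.43, had an SE of 0.37 (edgeR adjusted p = 0.701). It was -0.83 without PGR_F 1 and -0.25 without Con_F 4. For mt-Nd6, whose values stand above, PGR_F 2 and 4 lay under all Con_F libraries and PGR_F 1 over them. Its log2 fold change was -0.41 (SE 0.28, 95% interval -1.02 to 0.20, edgeR adjusted p = 0.623), with -0.80 without PGR_F 1 and -0.21 without PGR_F 2. Beside it, a list of 8 RNAs taken as retained in the nucleus summed to 29300 to 34000 CPM in PGR_F, against 33700 to 39400 CPM in Con_F. Malat1 made up most of this sum, with 25280 to 30040 CPM in PGR_F and 28620 to 33590 CPM in Con_F. Over the 13 libraries this sum had r = 0.66 with mt-Nd6 (permutation p = 0.0135, adjusted p = 0.036), with rho = 0.51 (adjusted p = 0.184). With mt-Rnr2 it had r = 0.63 (permutation p = 0.0209, adjusted p = 0.0487), with rho = 0.37 (adjusted p = 0.375). Without PGR_F 2 and 4, r was 0.27 for mt-Nd6 and 0.25 for mt-Rnr2. For deviations from the group means it was 0.71 and 0.69. With mt-Cytb the sum had r = 0.06 (permutation p = 0.843, adjusted p = 0.956) and rho = 0.03 (adjusted p = 0.985). The part of these RNAs in the mt-Nd6 difference was not tested. The log2 fold change of mt-Cytb was 0.16 (SE 0.42, interval -0.78 to 1.10, edgeR adjusted p = 0.923), with -0.047 without PGR_F 2 and 0.57 without Con_F 4. The 3 PGR_F values of mt-Cytb lay inside the range of Con_F.

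mt-Co3, a core subunit of complex IV, was the member with an unadjusted p under 0.05. It had 0.343, 0.449 and 0.528 CPM in PGR_F (11, 22 and 31 counts), against 0.156, 0.0933, 0.239 and 0.449 CPM in Con_F (9, 4, 10 and 17 counts). Con_F 4 reached the range of PGR_F, and the other 3 Con_F libraries lay under it. The log2 fold change was 0.98 (SE 0.43, 95% interval 0.06 to 1.90, unadjusted p = 0.0378, edgeR adjusted p = 0.431). Gm28437, the copy of mt-Co3 on chromosome 1, had 16, 38 and 33 counts in PGR_F, against 21, 21, 20 and 30 counts in Con_F. The log2 fold change of mt-Co3 was 0.73 without Con_F 2 and 1.46 without Con_F 4. Without Con_F 4, 4 members had an unadjusted p under 0.05 and 0 passed. Calls also rose over the whole table, where 20 of 16189 genes passed at that setting, against 0 of 16125 with Con_F 4. The share of all genes at an unadjusted p under 0.05 was not computed there, so these 4 members have no background beside them.

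In males the question was the same, and again 0 of 15 members passed, against 0% of all genes. 0 had an unadjusted p under 0.05, against 7.48% of all genes. 9 of 15 log2 fold changes were above 0, against 50.1% of all genes, with a median of 0.11 against 0.00. The smallest adjusted p was 0.889. One library carried most of the height of PGR_M: mt-Co1 had 268, 225 and 545 CPM in PGR_M, against 434, 336 and 226 CPM in Con_M. The log2 fold change of mt-Co1 was 0.06 (SE 0.33, 95% interval -0.66 to 0.79, edgeR adjusted p = 0.98), with -0.42 without PGR_M 3 and 0.30 without Con_M 1. mt-Cytb was at 0.18 (SE 0.45, edgeR adjusted p = 0.957), with -0.26 without PGR_M 3 and 0.37 without PGR_M 1. mt-Rnr1 had 956, 612 and 1460 CPM in PGR_M, against 1149, 1331 and 1204 CPM in Con_M. PGR_M libraries lay on both sides of Con_M, and the log2 difference, -0.28, had an SE of 0.39 (edgeR adjusted p = 0.906). It was -0.64 without PGR_M 3 and -0.02 without PGR_M 2.

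Averaged over the sexes, 0 of 15 members passed, against 0.0062% of all genes, which is 1 gene. 0 had an unadjusted p under 0.05, against 14.8% of all genes. 12 of 15 lay above 0, against 51% of all genes, with a median of 0.12 against 0.00. The 3 members below 0 were mt-Rnr1 (log2 fold change -0.36, SE 0.27), mt-Rnr2 (-0.21, SE 0.22) and mt-Nd6 (-0.25, SE 0.20). Among messengers mt-Cytb was at 0.17 (SE 0.31) and mt-Nd5 at 0.22 (SE 0.29), while mt-Atp6, a proton channel subunit of complex V, was at 0.48 (SE 0.34) and mt-Co3 at 0.58 (SE 0.30). The edgeR adjusted p of these 7 was 0.389 to 0.849, lowest for mt-Co3 and highest for mt-Cytb. The 95% intervals were -0.52 to 0.85 for mt-Cytb and -0.95 to 0.23 for mt-Rnr1, which bound the changes that these libraries do not exclude. With each library left out in turn, mt-Cytb was at -0.054 without PGR_M 3 and at 0.37 without Con_F 4. Likewise mt-Rnr1 was at -0.56 without PGR_F 1 and -0.23 without PGR_M 2, mt-Rnr2 at -0.43 without PGR_F 1 and -0.09 without PGR_M 2, and mt-Nd6 at -0.45 without PGR_F 1 and -0.15 without PGR_F 2. The extremes were 0.45 without PGR_M 3 and 0.82 without Con_F 4 for mt-Co3, and 0.33 and 0.80 without the same libraries for mt-Atp6.

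**Figure D4:**
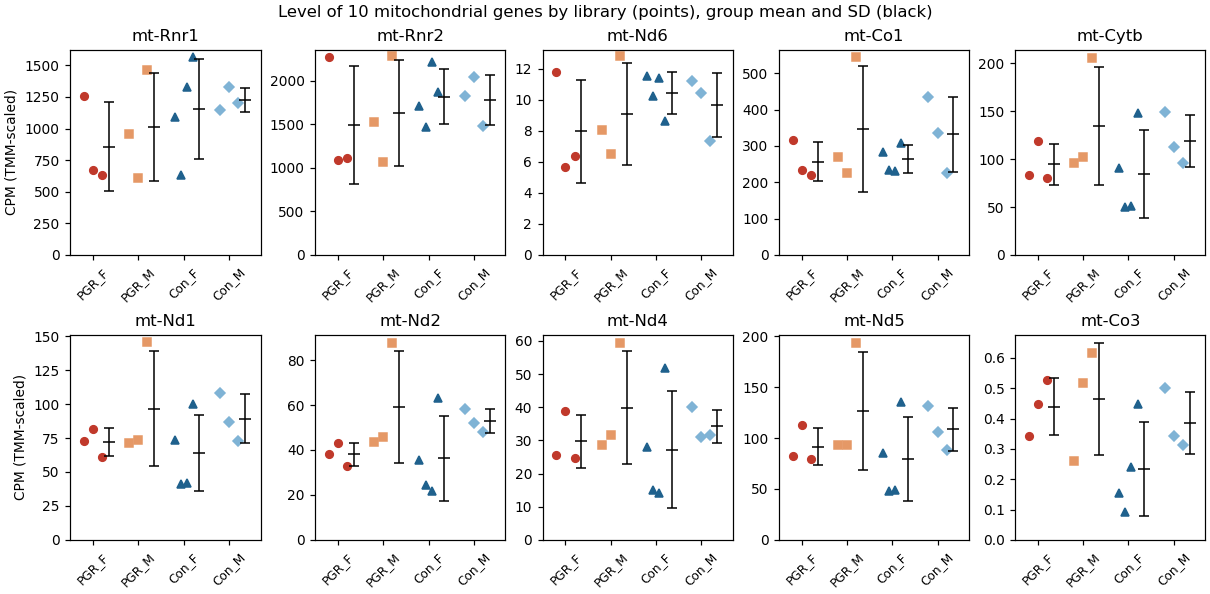
CPM of 10 mitochondrial genes in each library, by group, with the group mean and SD (black, n = 4 for Con_F and 3 for the others). All axes start at 0. Within each sex the PGR-vector and control-vector libraries overlap in every panel, and PGR_M 3 is the highest library in every panel but that of mt-Rnr1.

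The vector effect in females minus that in males was fitted as an interaction. 0 of 15 members passed, against 0% of all genes, and 0 had an unadjusted p under 0.05, against 3.26%. 7 of 15 differences were above 0, against 51% of all genes, with a median of -0.01 against 0.01. mt-Co3 was at 0.80 (SE 0.60) and mt-Rnr2 at -0.15 (SE 0.44) for the female minus the male log2 fold change, with an edgeR adjusted p of 1.00 each. With a library left out, mt-Co3 was at 0.49 without Con_M 1 and 1.27 without Con_F 4 at its extremes, and mt-Rnr2 at -0.60 without PGR_F 1 and 0.16 without PGR_M 3.

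Females and males were then compared under each vector. Under the PGR vector, 0 of 15 members passed, against 0.143% of all genes, and 0 had an unadjusted p under 0.05, against 7.25%. 2 of 15 were above 0 in females over males, against 53.1% of all genes, and the median was -0.35 against 0.01. mt-Nd2, of complex I, had 38.2, 43.2 and 32.7 CPM in PGR_F, against 43.6, 45.8 and 87.7 CPM in PGR_M. All 3 PGR_F libraries lay under all 3 PGR_M libraries, with the nearest values close together, and the log2 fold change was -0.64 (SE 0.39, edgeR adjusted p = 0.838). mt-Cytb was at -0.51 (SE 0.45, edgeR adjusted p = 0.897). Without PGR_M 3 these were -0.25 for mt-Nd2 and -0.09 for mt-Cytb. At the other extreme mt-Nd2 was at -0.81 without PGR_M 1, and mt-Cytb at -0.72 without PGR_F 2.

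Under the control vector, 0 of 15 members passed, against 0.229% of all genes, and 1 had an unadjusted p under 0.05, against 12.4%. 2 of 15 were above 0 in females over males, against 50% of all genes, and the median was -0.46 against 0.00. The member with an unadjusted p under 0.05 was mt-Ti, with 11, 4, 7 and 6 counts in Con_F, against 38, 14 and 5 counts in Con_M. That is 0.191, 0.0933, 0.168 and 0.159 CPM in Con_F, against 0.443, 0.399 and 0.156 CPM in Con_M. Con_M 3 lay within the range of Con_F, and the log2 fold change was -1.18 (SE 0.44, unadjusted p = 0.0164, edgeR adjusted p = 0.295). mt-Cytb was at -0.49 (SE 0.42), mt-Co1 at -0.33 (SE 0.31) and mt-Rnr2 at 0.03 (SE 0.30), with edgeR adjusted p of 0.674, 0.704 and 0.982.

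With each library left out in turn, the log2 fold change of mt-Ti was -1.45 without Con_M 3 and -0.85 without Con_M 1 at its extremes. That of mt-Co1 was -0.55 without Con_M 3 and -0.09 without Con_M 1, and that of mt-Cytb -0.90 without Con_F 4 and -0.30 without Con_M 1. Con_F 4 was the highest Con_F library for mt-Cytb, mt-Nd1, mt-Nd2, mt-Nd4 and mt-Nd5, and the one with Uty at 2.75 CPM. Without it, 9 of 15 members had an unadjusted p under 0.05 in Con_F over Con_M, the smallest adjusted p was 0.151 and 0 passed. Calls also rose over the whole table, where 92 of 16189 genes passed without Con_F 4, against 37 with it. The share of all genes at an unadjusted p under 0.05 was not computed for this setting, so the 9 members have no background beside them. Of 5 lists of markers of other cell types, 2 separated the same groups: 5 fibroblast markers summed to 43.8 to 68.8 CPM in Con_F, against 17.7 to 39.4 CPM in Con_M, and 5 endothelial markers to 36.99 to 43.03 CPM in Con_F, against 20.3 to 34.2 CPM in Con_M. The other 3 lists overlapped, at 18.2 to 25.4 CPM in Con_F and 15.4 to 24.6 CPM in Con_M for smooth muscle and pericytes, 7.59 to 10.03 CPM in Con_F and 4.96 to 7.97 CPM in Con_M for macrophages, and 2.80 to 6.93 CPM in Con_F and 6.27 to 6.71 CPM in Con_M for erythroid genes. What part these or the other features of Con_F 4 had in the mitochondrial values was not tested. The same Con_F libraries serve in the female vector comparison, so the comparisons share samples.

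**Figure D5:**
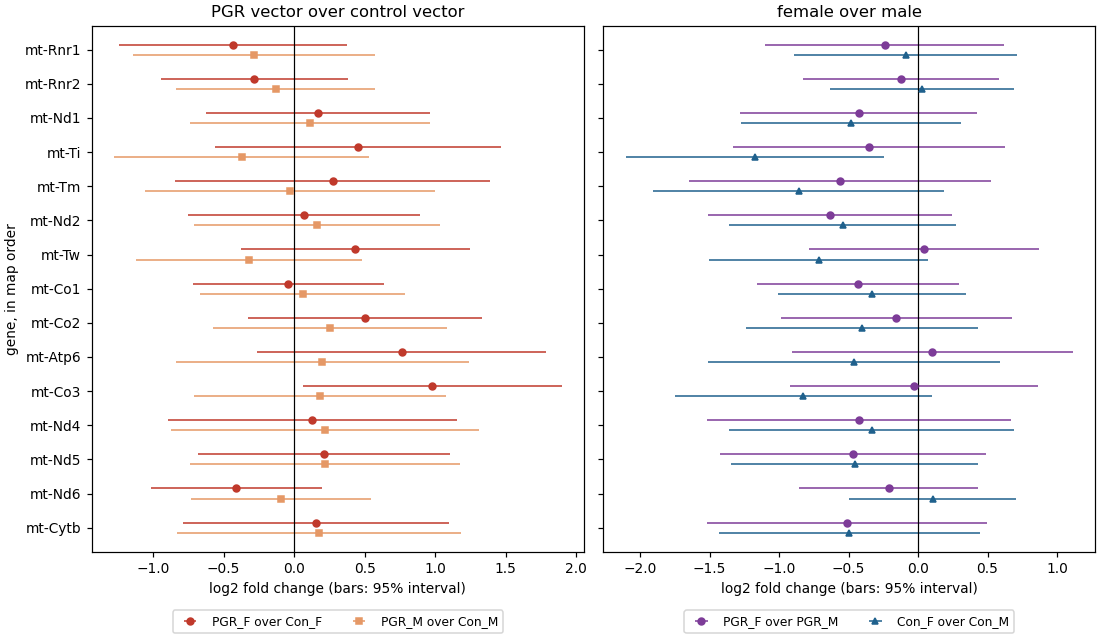
Log2 fold changes of the 15 tested mitochondrial genes with 95% intervals from edgeR's quasi-likelihood fit. Left: PGR vector over control vector in females (PGR_F over Con_F) and males (PGR_M over Con_M). Right: females over males under the PGR vector (PGR_F over PGR_M) and the control vector (Con_F over Con_M). The intervals exclude 0 for mt-Co3 in PGR_F over Con_F and mt-Ti in Con_F over Con_M, neither of which passed after adjustment.

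A second fit set each library's size to its summed mitochondrial protein-coding counts, which asks about proportions within the mitochondrion instead of amounts. 0 of 15 members passed in any of the 6 comparisons, and 0 when the summed counts of mt-Co1, mt-Co2, mt-Co3 and mt-Cytb took that place. The protein-coding members are part of that sum, and the fit draws its spread from all genes, which this scaling also shifts between libraries. mt-Nd1, at 9.75% to 12.8% of protein-coding counts, still had an SE of 0.35 in PGR_F over Con_F. A count of 0 therefore cannot show that the proportions were unchanged. Over all genes, the fit on protein-coding counts called 9 in PGR_F over Con_F, 12 in PGR_M over Con_M and 34 averaged over the sexes. It called 0 in the interaction, 8 in PGR_F over PGR_M and 54 in Con_F over Con_M. Relative to the messengers and averaged over the sexes, mt-Rnr1 was at -0.49 (SE 0.24) and mt-Nd6 at -0.38 (SE 0.28) in PGR over control libraries, each with an edgeR adjusted p of 1.00. Under this scaling the median log2 fold change of all genes was -0.15 in females, 0.00 in males and -0.07 averaged. By sample, mt-Nd6 made up 1.86%, 0.893% and 1.26% of protein-coding counts in PGR_F and 1.31%, 1.12% and 1.02% in PGR_M, against 1.89%, 2.42%, 2.71% and 1.05% in Con_F and 1.20%, 1.41% and 1.29% in Con_M. Con_F 2 and 3 were the highest and PGR_F 2 the lowest. mt-Co1 made up 36.8% to 55.1%, the largest share in all 13 libraries.

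Nuclear genes that make and handle these transcripts were read beside them. Of 18 genes for transcription and replication of mitochondrial DNA, all tested, 0 passed in any comparison by edgeR. Averaged over the sexes, 2 had an unadjusted p under 0.05, against 14.8% of all genes, and 10 were above 0 and 8 below, against 51% of all genes above 0, with a median of 0.01 against 0.00. Polrmt, the polymerase, had 24.6 ± 3.27 CPM in PGR_F and 25.3 ± 1.22 in PGR_M, against 29.4 ± 2.62 in Con_F and 25.8 ± 1.49 in Con_M (SD, n = 3, 3, 4 and 3). Its averaged log2 fold change was -0.14 (SE 0.07, edgeR adjusted p = 0.365). Tfam, which packages mitochondrial DNA and starts its transcription, was at -0.09 (SE 0.08). The nuclease Mgme1 was at -0.30 (SE 0.10), the primase and polymerase Primpol at 0.31 (SE 0.12) and the topoisomerase Top1mt at 0.21 (SE 0.10), with edgeR adjusted p of 0.2 to 0.355.

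Of 29 genes for processing and stability of mitochondrial RNA, 27 were tested and 0 passed in any comparison by edgeR. Averaged over the sexes, 5 had an unadjusted p under 0.05, against 14.8% of all genes, and 9 were above 0 and 18 below, against 51% of all genes above 0, with a median of -0.04 against 0.00. Lrpprc, which stabilises mitochondrial messengers, was at -0.09 (SE 0.08, edgeR adjusted p = 0.646). The helicase Supv3l1 was at -0.21 (SE 0.07), the exonuclease Rexo2 at -0.16 (SE 0.06) and the ribosomal protein Mrpl12 at -0.28 (SE 0.12), with edgeR adjusted p of 0.204 to 0.29.

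Of 12 regulators of mitochondrial biogenesis, all tested, 0 passed in any comparison by edgeR. Averaged over the sexes, 3 had an unadjusted p under 0.05, against 14.8% of all genes, and 4 were above 0 and 8 below, against 51% of all genes above 0 (median -0.06 against 0.00). Pprc1, a coactivator related to PGC-1alpha, had 16.6 ± 1.95 CPM in PGR_F and 13.8 ± 1.61 in PGR_M, against 21.1 ± 4.01 in Con_F and 18.7 ± 1.72 in Con_M (SD, n = 3, 3, 4 and 3). Its averaged log2 fold change was -0.39 (SE 0.10, edgeR adjusted p = 0.117). DESeq2 gave it an adjusted p of 0.0232, and edgeR without Con_F 4 one of 0.0309. Over all genes these settings passed 339 of 12048 and 338 of 16189, against 1 of 16125 by edgeR with all libraries. Pprc1 was named for having a small p in this same comparison. The nuclear receptors Esrra and Ppara, which drive genes of oxidative metabolism, were at -0.23 (SE 0.07) and -0.27 (SE 0.10), with edgeR adjusted p of 0.18 and 0.238.

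The nuclear genes of complexes I, III, IV and V, partners of the mitochondrial messengers, were 38 symbols in 39 tested rows, since Atp5o has 2 rows. By edgeR 0 passed in any comparison, and averaged over the sexes DESeq2 passed 0 of them. Without Con_F 4, edgeR passed Cox6b1 of complex IV in that comparison (log2 fold change -0.25, adjusted p = 0.0481). At that setting 338 of 16189 genes passed, against 1 of 16125 with all libraries. Averaged over the sexes, 6 rows were above 0 and 33 below, against 51% of all genes above 0, with a median of -0.11 against 0.00 and 14 at an unadjusted p under 0.05, against 14.8% of all genes. Ndufb10 of complex I was at -0.24 (SE 0.07) and Atp5g1 of complex V at -0.23 (SE 0.08), with edgeR adjusted p of 0.164 and 0.2. Beside them, 12 of the 15 tested mitochondrial genes were above 0 in the same comparison. These do not vary independently, as mt-Nd1, mt-Nd2, mt-Nd4, mt-Nd5 and mt-Cytb correlated at 0.96 to 1.00, and mt-Co2, mt-Atp6 and mt-Co3 rested on few counts. With a library left out, mt-Cytb was at -0.054 without PGR_M 3 and 0.37 without Con_F 4. For mt-Nd5 the values were -0.0045 and 0.41 without the same libraries. The difference between the nuclear and mitochondrial genes was not tested.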

How the data were processed

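RNA of sorted nuclei was counted per gene in 13 libraries of 4 groups. Whole-number read counts were deposited by the authors in a broader table of 55536 genes and a smaller one of 15645. Per the file headers each gene has coordinates, a strand and a length. Per the submitters' processing notes GRCm38 and mm10 were the builds, and STAR 2.5.3a and featureCounts 1.5.0 the tools, with no roles stated. How reads with several placements were counted was not given in the sources used here. The broader table was used, and 15 mitochondrial rows also stand in the smaller one with 0 differing.

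The test was run in edgeR 4.0.16 (R 4.3.3): filterByExpr with the 4 groups (16125 genes kept), TMM scaling, 1 quasi-likelihood fit of 4 group means with a robust prior, and 6 contrasts, each adjusted by Benjamini-Hochberg over the 16125. The standard error is the log2 fold change over the square root of F. CPM uses TMM-scaled sizes, and CPM per kb divides by the deposited length. Correlations used log2 CPM and 100000 permutations. Transcripts of GENCODE M21 (GRCm38) were aligned with blastn 2.17.0 (at least 90% identity, and 200 bases for a copy to be listed). Alternatives were DESeq2 1.42.0, limma-voom 3.58.1, no filter, sizes without mitochondrial rows, no TMM, the smaller table, 2 groups only, a replicate block and leaving out each library. The fit was tested on simulated data. No pair of replicates agreed within sampling noise. The mitochondrial genes and the nuclear lists were chosen with earlier results of these data known. Members named are the 13 protein-coding genes, both rRNAs and the 5 tRNAs with most counts. Nuclear genes named are Polrmt, Tfam, Lrpprc and the 3 of each list with the smallest p in the averaged vector comparison, of which 1 is not reported here.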

Additional observations from a re-analysis of the deposited data

How the results depend on the processing

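Of the counts of mitochondrial genes passing, all 124 recomputed under an alternative stayed at 0. With the replicate block, 0 of 15 passed in each comparison. Over 16 pairs of libraries with the same replicate number, deviations from the group means correlated at -0.29 to 0.36, and 4 of 13 libraries correlated best with their own number. No reference distribution was made for these values, so they cannot settle whether the replicate numbers pair the samples. Of 37 log2 fold changes, 271 values under other settings had 0 reversals, and 481 values with a library left out had 13, all of them mitochondrial genes short of the threshold. Leaving out a library, the log2 fold change ranged from -0.42 to 0.30 for mt-Co1 and from -0.26 to 0.37 for mt-Cytb in PGR_M over Con_M. It ranged from -0.047 to 0.57 for mt-Cytb in PGR_F over Con_F, from -0.054 to 0.37 for mt-Cytb and from -0.0045 to 0.41 for mt-Nd5 averaged over the sexes, from -0.60 to 0.16 for mt-Rnr2 in the interaction, and from -0.093 to 0.14 for mt-Rnr2 in Con_F over Con_M. The cause was not tested. Without the 2 rRNAs, the mean mitochondrial share was 0.0614% in PGR_F, 0.0807% in PGR_M, 0.0567% in Con_F and 0.0735% in Con_M. The alternatives for the nuclear lists were chosen after seeing the data. In the averaged vector comparison 1 list gene passed under DESeq2 (Pprc1) and 0 to 2 passed with a library left out (Pprc1 and Cox6b1 without Con_F 4). Over all genes, in the order PGR_F over Con_F, PGR_M over Con_M, averaged, interaction, PGR_F over PGR_M and Con_F over Con_M, edgeR called 0, 0, 1, 0, 23 and 37. DESeq2 called 81, 27, 339, 1, 76 and 224, edgeR with no filter 25, 12, 146, 1, 51 and 131, and edgeR without Con_F 4 called 20, 1, 338, 0, 44 and 92. Low counts limit mt-Co2, mt-Atp6, mt-Co3 and the tRNAs.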
